A study of Homo sapiens with 9 samples.

Results

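Metallothioneins are small cysteine-rich proteins that bind zinc, copper and cadmium, and the genes described here are the metallothionein genes MT1E, MT1F, MT1G, MT1M, MT1X and MT2A with the metal-sensing transcription factor gene MTF1 and the zinc exporter gene SLC30A1. Their rows were found by gene name. Of these 8 genes, 6 had a row among the 36225 genes of the expression table, and MT1G and MT1M were not analysed here. RBE, the cell line used, derives from an intrahepatic cholangiocarcinoma, that is, a tumour of bile duct cells within the liver. By lentivirus the cells received a short hairpin RNA against IDH1 (shIDH1), against JOSD2 (shJOSD2) or of scramble sequence (control), with 3 libraries in each group, and no drug, metal or time point is named for any group. Poly(A) RNA was sequenced, and nothing in the labels says that libraries of 1 group stem from separate infections. The p-values thus measure only the spread between libraries, which may be technical.

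Free zinc in the cell is kept low by binding to metallothioneins, by export through SLC30 transporters and by controlled import through SLC39 transporters. When zinc or cadmium rises, MTF1 binds metal response elements in the promoters of metallothionein genes and of SLC30A1 and raises their transcription. Metallothionein genes also respond to glucocorticoids and to oxidants, and hepatocytes make much of the protein.

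The 4 measured metallothionein genes lie together on chromosome 16, and SLC30A1 and MTF1 on chromosome 1. Promoter sequences of MT2A, MT1X, SLC30A1 and MTF1 were read from the RefSeq table used here. The 250 bases before the start of transcription are printed for MT2A, MT1X and SLC30A1 (RefSeq, GRCh38.p14), since these genes carry the contrast between a metallothionein and an exporter that the same factor is known to regulate. Capitals mark the core of the metal response element, searched as TGCACNC and TGCGCNC on both strands.
MT2A, chr16:56608334-56608583, plus strand: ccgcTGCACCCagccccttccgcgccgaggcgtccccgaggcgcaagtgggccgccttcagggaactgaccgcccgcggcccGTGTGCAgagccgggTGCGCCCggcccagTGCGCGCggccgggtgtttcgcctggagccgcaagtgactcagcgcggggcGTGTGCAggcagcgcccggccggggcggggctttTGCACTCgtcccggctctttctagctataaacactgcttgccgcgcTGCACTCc
MT1X, chr16:56682220-56682469, plus strand: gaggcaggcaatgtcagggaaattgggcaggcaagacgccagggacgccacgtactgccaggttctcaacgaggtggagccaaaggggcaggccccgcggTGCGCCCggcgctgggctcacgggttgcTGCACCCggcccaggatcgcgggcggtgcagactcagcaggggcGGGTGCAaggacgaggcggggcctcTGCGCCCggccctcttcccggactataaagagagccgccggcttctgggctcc
SLC30A1, chr1:211579162-211579411, minus strand: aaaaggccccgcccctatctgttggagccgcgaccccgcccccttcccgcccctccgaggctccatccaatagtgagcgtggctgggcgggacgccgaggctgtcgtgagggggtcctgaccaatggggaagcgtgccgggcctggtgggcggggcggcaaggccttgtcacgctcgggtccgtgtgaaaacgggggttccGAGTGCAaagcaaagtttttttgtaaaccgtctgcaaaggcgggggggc
The MT2A window held 7 matches, the MT1X window 4, the SLC30A1 window 1 and the MTF1 window 0. Of 35116 promoter windows of the same length, 24.8% held at least 1 match, 0.37% at least 4 and 0.0313% at least 7. A match describes the letters only and shows no binding.

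Levels are given in FPKM, a fragment count scaled to transcript length and library size. Comparisons between genes depend on the length taken for each gene, which was not checked. As a check of the hairpins, IDH1 stood at 12.6 ± 0.446 FPKM in shIDH1 and 44.0 ± 4.44 in control libraries, and JOSD2 at 0.795 ± 0.101 in shJOSD2 and 6.37 ± 0.260 in control libraries (SD, n = 3 each). JOSD2 was low in shIDH1 libraries as well, at 1.68 ± 0.174 FPKM. IDH1 was in turn called lower in shJOSD2 cells, with a log2 change of -0.5 in edgeR and a difference of -0.34 in log2(FPKM + 1). Library totals lay between 66036276 and 71612713 deposited counts. The biliary keratin genes KRT7 and KRT19 were abundant in all libraries, with KRT19 between 408 and 599 FPKM. Of 8 biliary markers 3 rose and 2 fell in shIDH1 cells, and 3 rose and 3 fell in shJOSD2 cells. Control replicates 2 and 3 stood apart from replicate 1 in some hepatocyte transcripts, with APOA1 at most at 6.24 FPKM in the knockdown libraries, at 2.91 in control replicate 1 and at 45.5 in replicate 3, and ALB at most at 0.269 in the knockdown libraries and at 0.104, 1.23 and 1.43 in control replicates 1, 2 and 3. Other hepatocyte markers rose: FGB by 4.65 ± 0.09 and FGA by 3.37 ± 0.19 in shIDH1 cells, and FGB by 1.91 ± 0.08 in shJOSD2 cells (log2 change, edgeR). The 16 hepatocyte markers summed to 116 to 123 FPKM in shIDH1, 66.2 to 69.5 in shJOSD2 and 41.8 to 100 in control libraries, with 4 higher and 6 lower in shIDH1 and 5 higher and 5 lower in shJOSD2 cells. Against control replicate 1 alone, no hepatocyte marker was called lower by edgeR, and 5 were higher in shIDH1 and 4 in shJOSD2 cells. APOA2 and APOC3 were listed at 0 in control replicate 1. Of 5 tested fibroblast markers 4 rose in shIDH1 and 2 in shJOSD2 cells. PDGFRB rose by 2.31 ± 0.23 in shIDH1 and 2.51 ± 0.23 in shJOSD2 cells on the log2 scale (edgeR). ACTA2 rose by 1.09 ± 0.07 and 0.99 ± 0.07, and COL1A1 by 1.53 ± 0.11 in shIDH1 cells. The fibroblast markers DCN and LUM were at or near 0 in all libraries. Of 7 tested leukocyte markers 1 fell in shIDH1 cells, and 1 rose and 1 fell in shJOSD2 cells, and of 5 tested endothelial markers 1 rose in shIDH1 and 0 changed in shJOSD2 cells. Of 5 tested nuclear-retained and non-polyadenylated RNAs, 2 rose and 1 fell in shIDH1 and 2 rose in shJOSD2 cells. Against control replicate 1 alone, biliary markers had 3 higher and 1 lower in shIDH1 and 2 higher and 2 lower in shJOSD2 cells. In that fit 4 fibroblast markers were higher in shIDH1 and 3 in shJOSD2 cells. In shIDH1 cells it called 0 leukocyte markers, 1 endothelial marker lower, and 2 of the nuclear-retained and non-polyadenylated RNAs higher and 1 lower. In shJOSD2 cells it called 2 leukocyte markers higher and 1 lower, 0 endothelial markers, and 1 of those RNAs higher. Fewer of all genes were called against control replicate 1 alone than in the main fit, so a call lost there need not reflect the gene itself. The part of these genes in the metallothionein levels was not tested beyond the values against control replicate 1 alone.

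MT2A, MT1E and MT1X fell in shIDH1 cells, and MT2A and MT1E fell in shJOSD2 cells. MT1F, at low counts, was also called lower in shIDH1 cells, and MT1X and MT1F did not pass the test in shJOSD2 cells. The FPKM values of MT2A, MT1E, MT1X and MT1F summed to 21.6 ± 1.25 in shIDH1 libraries, 77.8 ± 9.40 in shJOSD2 libraries and 185 ± 40.7 in control libraries (SD, n = 3 each). The sum was 8.56-fold lower in shIDH1 and 2.38-fold lower in shJOSD2 than in control libraries. MTF1 was slightly lower under both hairpins, a pair of calls that was lost against control replicate 1 alone, and SLC30A1 rose in shJOSD2 cells. In shIDH1 cells SLC30A1 stood at the same mean as in control, 9.12 FPKM. In bulk RNA, fewer cells that express a gene and less RNA per cell cannot be told apart.

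**Figure D1:**
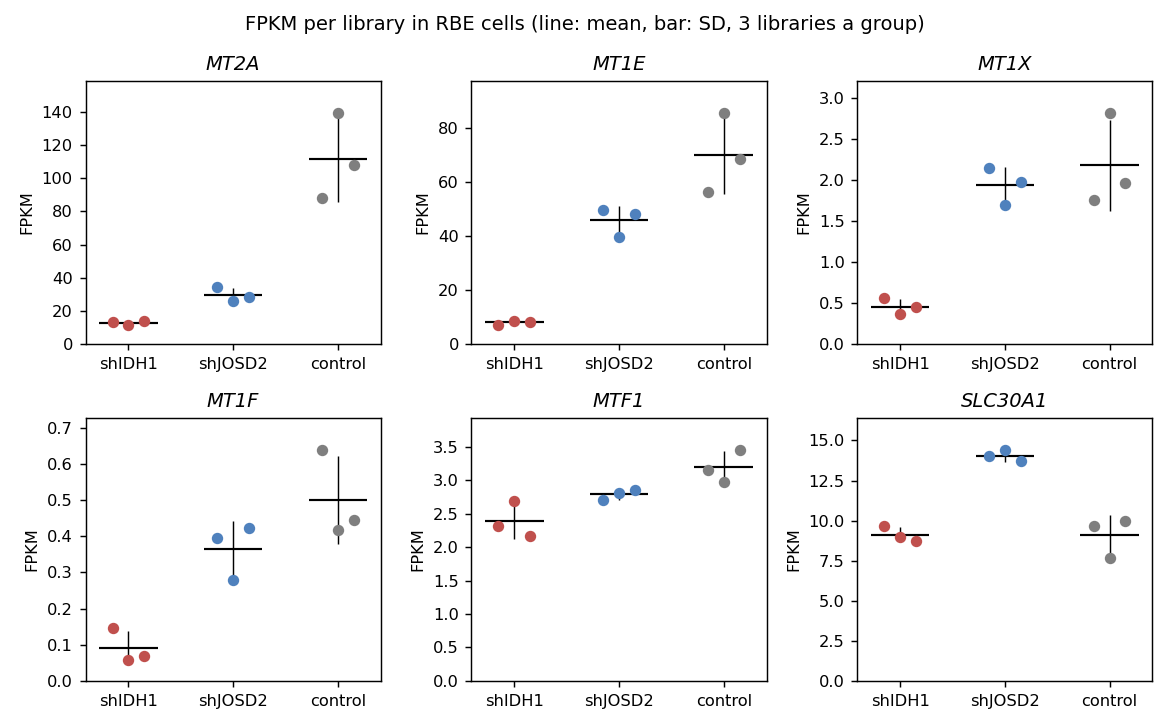
Each panel plots the FPKM of 1 gene on a linear axis from 0, with 1 point per library for shIDH1, shJOSD2 and control, a line at the group mean and a bar for the SD. All 3 shIDH1 libraries lie below all 3 control libraries for MT2A, MT1E, MT1X, MT1F and MTF1, and all 3 shJOSD2 libraries lie above all 3 control libraries for SLC30A1.

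MT2A (ENSG00000125148; GRCh38 chromosome 16, 56608584 to 56609497, plus strand), which encodes the most widely expressed human metallothionein, stood at 13.1, 11.5 and 14.2 FPKM in shIDH1 libraries, at 34.2, 26.1 and 28.5 in shJOSD2 libraries and at 87.8, 139 and 108 in control libraries. The 3 groups did not overlap. In shIDH1 cells the log2 change of MT2A was -3.12 ± 0.18, an 8.67-fold fall (SE, n = 3 per group; Benjamini-Hochberg adjusted p = 2.70e-08 over 21492 tested genes, quasi-likelihood test of edgeR). In shJOSD2 cells it was -2.07 ± 0.17, a 4.19-fold fall (edgeR, Benjamini-Hochberg adjusted p = 1.64e-06). The level in shIDH1 cells was also below that in shJOSD2 cells, with a log2 difference of -1.05 ± 0.17 (edgeR, Benjamini-Hochberg adjusted p = 0.000237). With deposited counts of 744 to 974 in shIDH1 and 5843 to 9097 in control libraries, MT2A was measured well above the lowest counts. Without control replicates 2 and 3, the shIDH1 log2 changes were -2.73 for MT2A and -2.76 for MT1E (edgeR, Benjamini-Hochberg adjusted p = 2.35e-07 and 1.43e-07), and the shJOSD2 change of MT2A was -1.68 (edgeR, Benjamini-Hochberg adjusted p = 1.99e-05). With a single control library, the spread is taken from the other groups, and fewer of all genes were called.

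MT1E (ENSG00000169715; chromosome 16, 56625475 to 56627112, plus strand), a metallothionein of the MT1 group, stood at 7.24, 8.77 and 8.28 FPKM in shIDH1 libraries, at 49.9, 39.7 and 48.1 in shJOSD2 libraries and at 56.3, 85.6 and 68.8 in control libraries. Again no group overlapped another, but the shJOSD2 libraries lay much nearer to control than they did for MT2A. The log2 change of MT1E in shIDH1 cells was -3.12 ± 0.16, an 8.69-fold fall (edgeR, Benjamini-Hochberg adjusted p = 1.53e-08), the same fitted change as MT2A. In shJOSD2 cells it was -0.77 ± 0.15 (edgeR, Benjamini-Hochberg adjusted p = 0.00140). The log2 difference between the hairpins was -2.35 ± 0.16 (edgeR, Benjamini-Hochberg adjusted p = 1.95e-07). Against control replicate 1 alone the shJOSD2 change of MT1E was -0.41 and no longer passed (edgeR, Benjamini-Hochberg adjusted p = 0.0586).

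MT1X (ENSG00000187193; chromosome 16, 56682470 to 56684196, plus strand) was far less abundant, at 0.558, 0.369 and 0.449 FPKM in shIDH1 libraries, 2.14, 1.70 and 1.98 in shJOSD2 libraries and 1.76, 2.81 and 1.96 in control libraries. The shIDH1 libraries lay below all others, and the shJOSD2 and control libraries overlapped. MT1X fell in shIDH1 cells with a log2 change of -2.23 ± 0.25 (edgeR, Benjamini-Hochberg adjusted p = 9.98e-06). The change in shJOSD2 cells was -0.32 ± 0.23 (edgeR, Benjamini-Hochberg adjusted p = 0.327) and was 0.03 against control replicate 1 alone. Between the hairpins the log2 difference was -1.92 ± 0.25 (edgeR, Benjamini-Hochberg adjusted p = 4.44e-05).

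MT1F (ENSG00000198417; chromosome 16, 56657731 to 56660698, plus strand) was the least abundant, at 0.145, 0.0578 and 0.0702 FPKM in shIDH1 libraries, 0.394, 0.279 and 0.422 in shJOSD2 libraries and 0.638, 0.416 and 0.444 in control libraries. These levels rest on 20, 9 and 10 deposited counts in shIDH1 libraries, 54, 37 and 55 in shJOSD2 libraries and 87, 57 and 59 in control libraries. The shIDH1 counts are low, and MT1F passed the filter on low counts through the other groups, which favours a lower value in shIDH1 cells. Its log2 change there was -2.38 ± 0.44 (edgeR, Benjamini-Hochberg adjusted p = 0.000593), and the same value was fitted with no filter (edgeR, Benjamini-Hochberg adjusted p = 0.00135). In shJOSD2 cells its change of -0.59 ± 0.41 did not pass (edgeR, Benjamini-Hochberg adjusted p = 0.287). Between the hairpins the log2 difference was -1.79 ± 0.44 (edgeR, Benjamini-Hochberg adjusted p = 0.00484).

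MTF1 (ENSG00000188786; chromosome 1, 37809574 to 37859592, minus strand), the zinc-finger factor that senses zinc and drives metallothionein genes, stood at 2.32, 2.69 and 2.17 FPKM in shIDH1 libraries, at 2.70, 2.81 and 2.85 in shJOSD2 libraries and at 3.15, 2.98 and 3.45 in control libraries. The ranges were narrow and close together, and both hairpin groups lay wholly below control. MTF1 had a log2 change of -0.42 ± 0.09 in shIDH1 cells (edgeR, Benjamini-Hochberg adjusted p = 0.00241) and of -0.34 ± 0.09 in shJOSD2 cells (edgeR, Benjamini-Hochberg adjusted p = 0.0113). The log2 difference between the hairpins was -0.07 ± 0.09 (edgeR, Benjamini-Hochberg adjusted p = 0.571). Both calls against control were lost when control replicate 1 stood alone, with log2 changes of -0.36 for shIDH1 and -0.29 for shJOSD2 (edgeR, Benjamini-Hochberg adjusted p = 0.0513 and 0.142). The shJOSD2 call was also lost with library sizes in place of TMM scaling, where the change was -0.19, and without control replicate 3 or shJOSD2 replicate 1, where it was -0.28 and -0.31.

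SLC30A1 (ENSG00000170385; chromosome 1, 211571568 to 211579161, minus strand), the zinc exporter ZnT1 of the plasma membrane, stood at 9.66, 8.98 and 8.72 FPKM in shIDH1 libraries, at 14.0, 14.4 and 13.7 in shJOSD2 libraries and at 9.66, 7.69 and 10.0 in control libraries. The shJOSD2 libraries lay above all others, and the shIDH1 libraries lay within the control range. The log2 change in shIDH1 cells was 0.00 ± 0.08 (edgeR, Benjamini-Hochberg adjusted p = 0.998). SLC30A1 rose by 0.47 ± 0.08 in shJOSD2 cells, 1.39-fold (edgeR, Benjamini-Hochberg adjusted p = 0.000473). It was lower in shIDH1 than in shJOSD2 cells, with a log2 difference of -0.48 ± 0.08 (edgeR, Benjamini-Hochberg adjusted p = 0.000329).

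**Figure D2:**
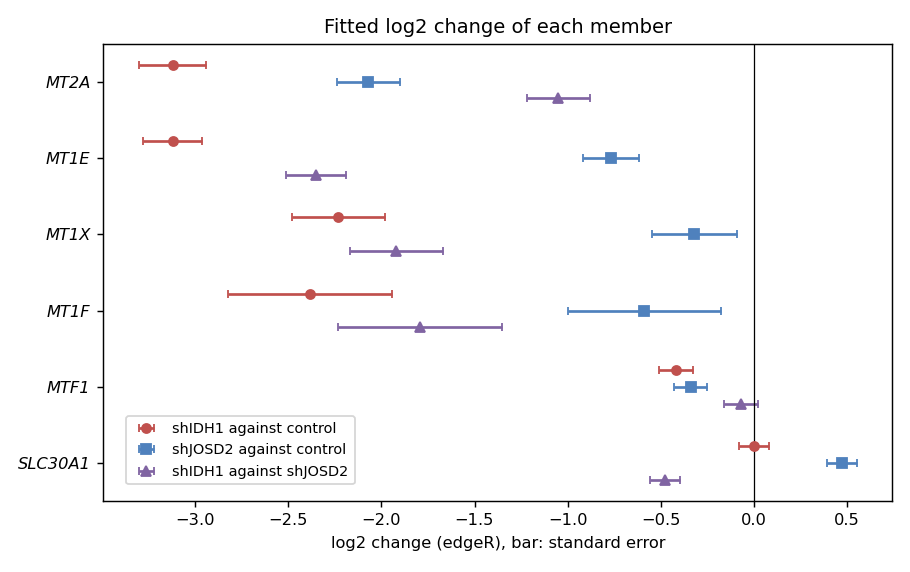
The fitted log2 change of each gene is plotted with its standard error for shIDH1 against control (circles), shJOSD2 against control (squares) and shIDH1 against shJOSD2 (triangles). MT2A and MT1E share a change of -3.12 in shIDH1 cells and part in shJOSD2 cells, at -2.07 and -0.77, and SLC30A1 is the only gene plotted to the right of 0 in shJOSD2 cells.

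In shIDH1 against control cells 5 of the 6 measured genes passed the test and all 5 were lower, with MT1F among them, beside 50.1% of all tested genes called, 24.5% higher and 25.6% lower. The same 5 had library ranges apart from control, as had 56.9% of all tested genes, 28.3% on the lower side. In shJOSD2 against control cells 4 of 6 passed, with MT2A, MT1E and MTF1 lower and SLC30A1 higher, beside 38.3% of all tested genes called, 18.2% higher and 20.1% lower (3907 and 4330 genes, but 5638 and 2934 with library sizes in place of TMM). Those 4 had ranges apart from control, as had 51.7% of all tested genes, 17.4% on the lower side. With control replicate 1 as the lone control these counts were 4 for shIDH1 and 2 for shJOSD2, the 2 being MT2A and SLC30A1, beside 8476 and 5569 called of 24341 genes tested in that fit. Between the hairpins 5 of 6 passed, all lower in shIDH1 cells, beside 44.8% of all tested genes called, 20.8% higher and 24.0% lower (4479 and 5156 genes, but 3316 and 6653 with library sizes in place of TMM). With MTF1, all 6 had ranges apart and lower in shIDH1 cells, as had 37.7% of all tested genes, and 58.4% were apart in either direction. Without MT1F, the log2 changes of the metallothionein genes ran between -3.12 and -2.23 in shIDH1 and between -2.07 and -0.32 in shJOSD2 cells, where the medians of all tested genes were 0.01 and 0.03. Both comparisons use the same control libraries, so their changes are not independent of each other. Exact two-sided permutation tests of the log2(FPKM + 1) values of MT2A and MT1E gave p = 0.1 in each of the 3 comparisons, which is the lowest value possible with 3 libraries against 3.

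The order of the levels also differed between the groups. Any order between genes rests on the length taken for each gene, so the place of MT1X below MTF1 is uncertain. In control libraries MT2A was highest at 112 ± 25.7 FPKM, followed by MT1E at 70.2 ± 14.7, SLC30A1 at 9.12 ± 1.25, MTF1 at 3.19 ± 0.238, MT1X at 2.18 ± 0.557 and MT1F at 0.500 ± 0.121 (SD, n = 3). The ranges of MT2A and MT1E came close there, with the highest MT1E library at 85.6 and the lowest MT2A library at 87.8. In shJOSD2 libraries MT1E at 45.9 ± 5.42 FPKM lay above MT2A at 29.6 ± 4.14, and the ranges did not overlap. In shIDH1 libraries MT2A at 12.9 ± 1.37 FPKM was followed by SLC30A1 at 9.12 ± 0.484 and MT1E at 8.10 ± 0.782, and the last 2 overlapped.

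The mix of metallothionein transcripts in shJOSD2 libraries differed from that in the other groups. MT2A made up 62.2%, 55.5% and 61.7% of the summed metallothionein FPKM in shIDH1 libraries, 39.5%, 38.5% and 36.0% in shJOSD2 libraries and 59.9%, 61.0% and 60.3% in control libraries. The ratio of MT1E to MT2A was 0.634 ± 0.114 in shIDH1, 1.56 ± 0.119 in shJOSD2 and 0.631 ± 0.0135 in control libraries (SD, n = 3 each). The log2 ratio was higher in all 3 shJOSD2 libraries than in any control library, by 1.3 on average. In shIDH1 libraries it differed from control by -0.01. The ratio of MT1X to MT2A ran from 0.0316 to 0.0427 in shIDH1, from 0.0625 to 0.0695 in shJOSD2 and from 0.0181 to 0.0202 in control libraries, so the 3 groups were apart. The ratios and shares were chosen after the values were seen and are a description with no test. Their sizes also rest on the length taken for each gene.

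**Figure D3:**
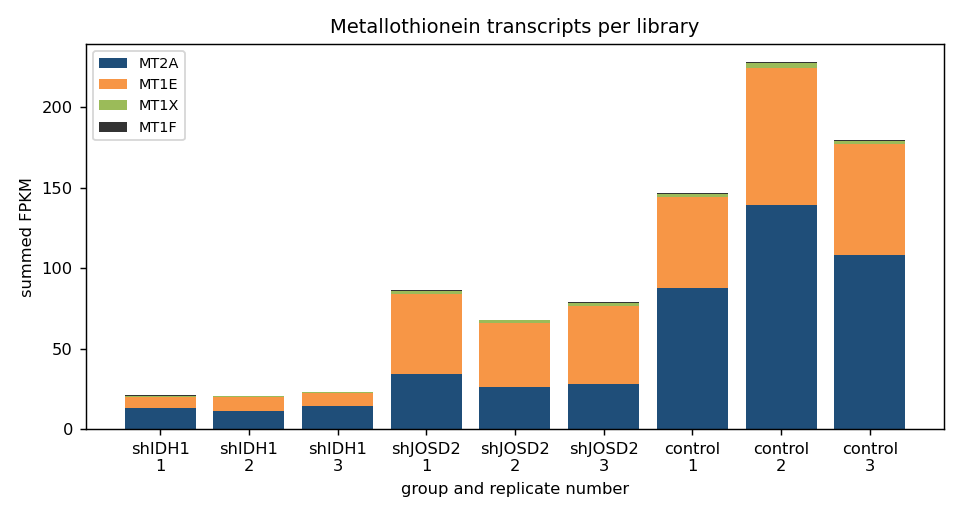
Stacked bars give the FPKM of MT2A, MT1E, MT1X and MT1F in each of the 9 libraries on a linear axis from 0. The sums lie between 20.7 and 23.0 in shIDH1, between 67.9 and 86.6 in shJOSD2 and between 147 and 228 in control libraries, and MT1E is the larger part in shJOSD2 libraries only.

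Metallothionein genes resemble each other, and how reads that fit several genes were counted is not given in the sources used here. In GENCODE release 29 transcripts, no 150-base window of MT2A, MT1E or MT1F occurred in a transcript of another gene. Of the 50-base windows, 3.02% of MT2A, 7.10% of MT1E and 1.22% of MT1F occurred in another gene. MT1X shared 8.58% of its 150-base windows with AC026461.1 and 18.3% of its 50-base windows with other genes, the largest shares of the 4. The pseudogene MT2P1 on chromosome 4, a processed copy of MT2A, was listed with 8, 8 and 0 counts in shIDH1, 2, 3 and 11 in shJOSD2 and 22, 29 and 38 in control libraries, and its log2 changes of -2.46 ± 1.03 and -2.57 ± 1.03 did not pass the test (edgeR, Benjamini-Hochberg adjusted p = 0.0660 and 0.0699). Of the 15 other metallothionein loci on the list, 4 had a row, and the only 1 tested was MT2P1.

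By the measure that follows, the profile of MT2A over the 9 libraries was closer to that of many other genes than to that of MT1E. Likeness was measured as the root mean square difference between log2(FPKM + 1) values, each gene centred on its own mean, over 12377 tested genes with a mean of at least 1 FPKM. The 5 closest genes were PLK1 at 0.198, CDCA5 at 0.214, KIFC1 at 0.215, HJURP at 0.229 and KIF2C at 0.230 log2 units. PLK1, polo like kinase 1, stood at 2.25, 1.50 and 1.65 FPKM in shIDH1, 6.06, 5.07 and 5.36 in shJOSD2 and 23.0, 30.2 and 29.4 in control libraries. MT1E differed from MT2A by 0.603 log2 units and would rank 215, MT1X by 0.867 and MT1F by 1.08. The added 1 flattens changes of genes at low levels, MT1X, MT1F and the 5 closest genes in shIDH1 libraries among them. MT1X and MT1F therefore could not lie close to MT2A by this measure. The closeness of the 5 closest genes is affected as well, and so is the rank of MT1E. In the edgeR fit PLK1 had log2 changes of -3.94 in shIDH1 and -2.47 in shJOSD2 cells, both larger than those of MT2A. The other 4 had fitted changes between -3.63 and -3.41 in shIDH1 and between -1.93 and -1.78 in shJOSD2 cells.

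The other zinc transporters did not move as one group. The counts of this and every other gene list stand beside the shares of all tested genes. These were 24.5% higher and 25.6% lower in shIDH1, and 18.2% higher and 20.1% lower in shJOSD2 cells. Most SLC30 proteins carry zinc out of the cytosol, and of 6 tested members besides SLC30A1, 3 rose and 1 fell in shIDH1 cells and 2 rose in shJOSD2 cells, with median log2 changes of 0.13 and 0.27. SLC30A4, which loads zinc into endosomes, stood at 1.55 ± 0.0296 FPKM in shIDH1, 1.12 ± 0.0901 in shJOSD2 and 0.576 ± 0.113 in control libraries (SD, n = 3 each). It rose by 1.42 ± 0.15 on the log2 scale in shIDH1 and by 0.81 ± 0.15 in shJOSD2 cells (edgeR, Benjamini-Hochberg adjusted p = 4.67e-06 and 0.000848). SLC30A7 and SLC30A9 rose by 0.61 ± 0.18 and 0.18 ± 0.06 in shIDH1 cells (edgeR, Benjamini-Hochberg adjusted p = 0.0119 and 0.0161), and neither passed with control replicate 1 as the lone control, where 1 SLC30 gene rose and 1 fell in shIDH1 and 1 rose in shJOSD2 cells. SLC30A3, named after its values were seen and under 1 FPKM in mean over all libraries, fell by 2.11 ± 0.27 in shIDH1 cells (edgeR, Benjamini-Hochberg adjusted p = 2.83e-05). It rose by 0.85 ± 0.25 in shJOSD2 cells (edgeR, Benjamini-Hochberg adjusted p = 0.0161), a call lost against control replicate 1 alone and without control replicate 3 or shJOSD2 replicate 1. SLC30A6, among the most abundant of the list, had changes of -0.05 ± 0.10 in shIDH1 and 0.18 ± 0.10 in shJOSD2 cells. The count for shJOSD2 depended on the scaling: with library sizes in place of TMM, where the median change of all genes was 0.18, all 6 were called higher.

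The SLC39 proteins carry zinc into the cytosol, and of 12 tested members 7 rose and 2 fell in shIDH1 cells and 3 rose and 2 fell in shJOSD2 cells, with median log2 changes of 0.31 and -0.05. SLC39A4, an importer of the cell surface, had a log2 change of -1.42 ± 0.11 in shIDH1 cells, with 2.01 ± 0.124 FPKM against 5.36 ± 0.434 in control (edgeR, Benjamini-Hochberg adjusted p = 4.29e-07). SLC39A3 fell by 1.57 ± 0.13 in shIDH1 cells (edgeR, Benjamini-Hochberg adjusted p = 7.87e-07), while SLC39A13 rose by 0.97 ± 0.10 (edgeR, Benjamini-Hochberg adjusted p = 6.01e-06). In shJOSD2 cells SLC39A6, SLC39A8 and SLC39A10 rose by 0.65 ± 0.07, 0.55 ± 0.09 and 0.54 ± 0.09 (edgeR, Benjamini-Hochberg adjusted p = 1.02e-05, 0.000467 and 0.000558). The same 3 genes rose in shIDH1 cells, by 0.45 ± 0.07, 0.56 ± 0.09 and 0.64 ± 0.09. The most abundant importers were SLC39A1, at a mean of 50.9 FPKM over all libraries and a log2 change of 0.24 ± 0.06 in shIDH1 cells (edgeR, Benjamini-Hochberg adjusted p = 0.00420), and SLC39A7 at 43.7 FPKM and 0.11 ± 0.07. Against control replicate 1 alone, 8 rose and 2 fell in shIDH1 and 3 rose and 1 fell in shJOSD2 cells, and without TMM scaling 5 rose and 2 fell in shJOSD2 cells.

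**Figure D4:**
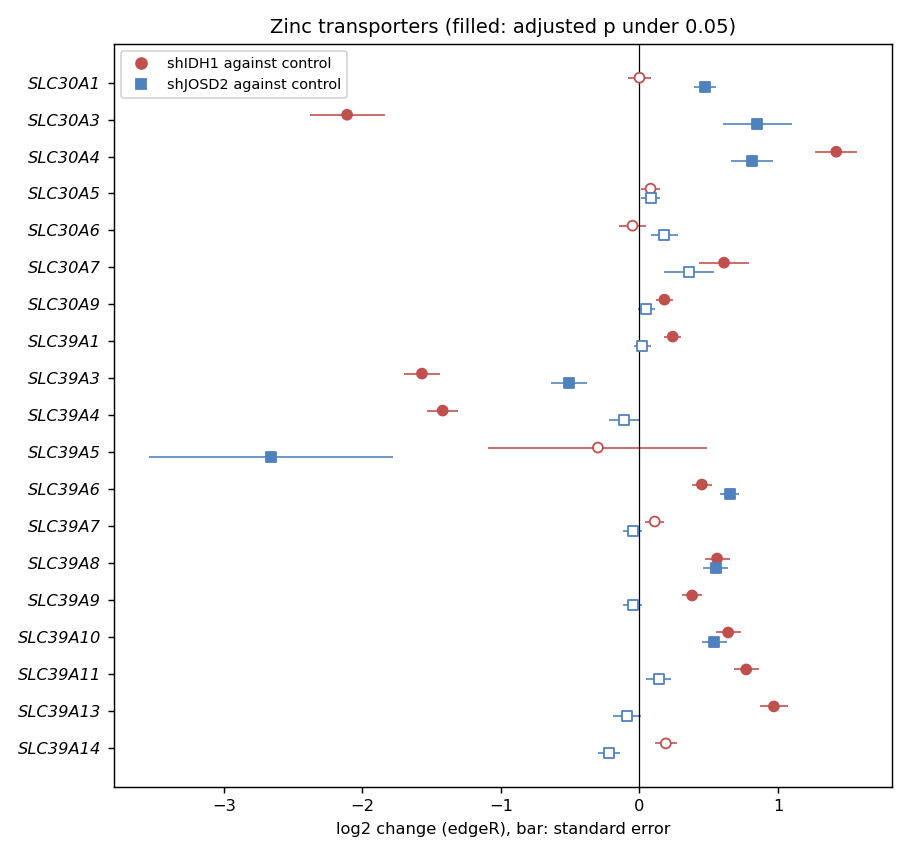
Log2 changes with standard errors are plotted for SLC30A1 and the tested SLC30 and SLC39 genes, shIDH1 against control as circles and shJOSD2 against control as squares, filled where the adjusted p was under 0.05. The changes lie on both sides of 0, with SLC30A3 at -2.11, SLC39A3 at -1.57 and SLC30A4 at 1.42 in shIDH1 cells. SLC39A5, at -2.66 in shJOSD2 cells, has a wide error.

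The genes next to the metallothionein cluster, whose measured members span 75.6 kb, moved in both directions. Of 8 tested neighbours 2 rose and 5 fell in shIDH1 cells and 3 rose and 5 fell in shJOSD2 cells, with median log2 changes of -0.73 and -0.43. On the side of MT2A, NUDT21, a subunit of the pre-mRNA cleavage factor, fell by 1.39 ± 0.09 in shIDH1 and 0.65 ± 0.09 in shJOSD2 cells (edgeR, Benjamini-Hochberg adjusted p = 8.96e-08 and 0.000111). OGFOD1, on the same side, fell by 0.97 ± 0.07 and 0.64 ± 0.07 (edgeR, Benjamini-Hochberg adjusted p = 2.71e-07 and 2.15e-05). BBS2 had changes of -0.21 ± 0.08 and 0.57 ± 0.08 (edgeR, Benjamini-Hochberg adjusted p = 0.0576 and 0.000200). On the side of MT1X, NUP93, a nuclear pore protein gene, fell by 1.15 ± 0.08 in shIDH1 and 0.26 ± 0.08 in shJOSD2 cells (edgeR, Benjamini-Hochberg adjusted p = 1.81e-07 and 0.0229), the shJOSD2 call being lost against control replicate 1 alone. HERPUD1, an ER stress gene, rose by 2.29 ± 0.19 in shIDH1 cells (edgeR, Benjamini-Hochberg adjusted p = 6.26e-07). SLC12A3, counted among the 5 lower genes under each hairpin, lay under 0.1 FPKM. It had 16, 28 and 42 deposited counts in control, 4, 0 and 0 in shIDH1 and 0, 2 and 0 in shJOSD2 libraries. It passed the filter on low counts through the control libraries, which favours a lower value under both hairpins. Apart from SLC12A3, no tested neighbour fell as far as MT2A, MT1E and MT1X in shIDH1 cells. With control replicate 1 as the lone control, 2 rose and 4 fell in shIDH1 and 2 rose and 2 fell in shJOSD2 cells, and without TMM scaling 3 rose and 3 fell in shJOSD2 cells.

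**Figure D5:**
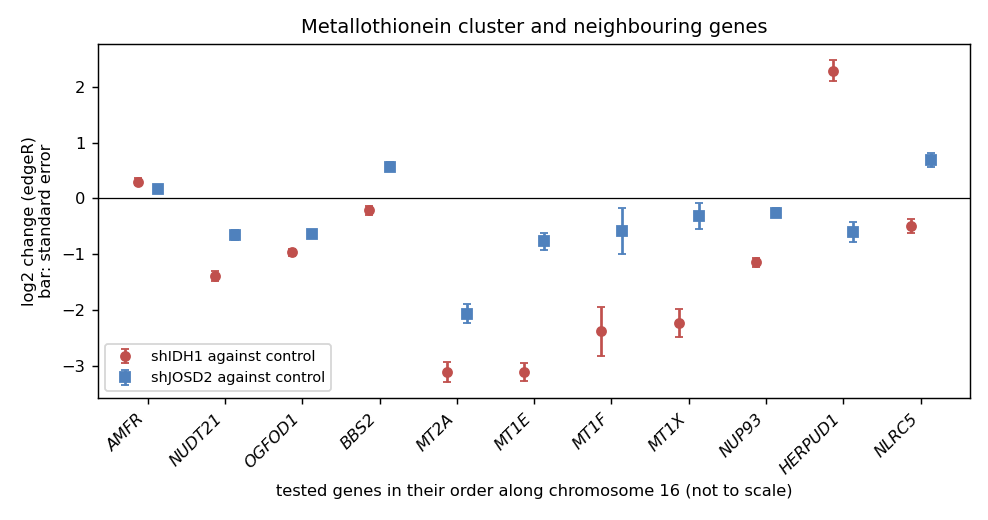
Log2 changes with standard errors are plotted for the metallothionein genes and tested neighbours with a mean of at least 0.1 FPKM, in their order along chromosome 16, shIDH1 against control as circles and shJOSD2 against control as squares. In shIDH1 cells the 4 metallothionein genes lie between -3.12 and -2.23, below NUDT21 at -1.39 and NUP93 at -1.15, and HERPUD1 lies at 2.29.

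Genes that handle copper and iron moved in both directions. Of 11 copper genes 3 rose and 4 fell in shIDH1 and 4 rose and 2 fell in shJOSD2 cells, with median log2 changes of 0.02 and 0.32. ATP7A, a copper exporter, rose by 1.19 ± 0.12 in shIDH1 and 0.83 ± 0.12 in shJOSD2 cells (edgeR, Benjamini-Hochberg adjusted p = 2.66e-06 and 0.000112), and the copper chaperone gene ATOX1 fell by 0.68 ± 0.13 in shIDH1 cells (edgeR, Benjamini-Hochberg adjusted p = 0.000732). Of 10 iron genes 4 rose and 4 fell in shIDH1 and 4 rose and 2 fell in shJOSD2 cells, with medians of 0.14 and 0.15. HMOX1, the heme oxygenase gene that cadmium and oxidants also induce, stood at 22.3, 50.1 and 63.6 FPKM in shIDH1, 4.10, 4.66 and 4.54 in shJOSD2 and 2.46, 4.38 and 3.75 in control libraries. HMOX1 rose in shIDH1 cells, where the metallothionein genes fell, with a log2 change of 3.68 ± 0.34 (edgeR, Benjamini-Hochberg adjusted p = 1.72e-06). The cause of these opposite directions was not tested. SLC40A1, the iron exporter ferroportin, rose by 1.50 ± 0.13 in shJOSD2 cells (edgeR, Benjamini-Hochberg adjusted p = 2.17e-06) and had a change of 0.08 ± 0.12 in shIDH1 cells (edgeR, Benjamini-Hochberg adjusted p = 0.641). Against control replicate 1 alone, 3 copper genes rose and 4 fell in shIDH1 and 5 rose and 1 fell in shJOSD2 cells, and 5 iron genes rose and 4 fell in shIDH1 and 3 rose and 2 fell in shJOSD2 cells. Without TMM scaling 6 copper genes rose and 2 fell and 6 iron genes rose and 1 fell in shJOSD2 cells.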

How the data were processed

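The submitters' processing notes name cutadapt 1.9, HISAT2 2.0.4, UMI-tools, StringTie 1.3.4d and GRCh38. No annotation, counting step or strand setting is given in the sources used here. Per the file headers, the table deposited by the authors holds a whole-number count and an FPKM value per gene and library, the count not normalized and the FPKM scaled by length and library. Low counts gather at 4 (10737 values, against 5505 at 3 and 3780 at 5), but only 30.2% of counts from 1 to 20 are multiples of 4, so how many counts 1 fragment carries is not known.

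A single edgeR 4.0.16 model (R 4.3.3) with a mean per group took all 9 libraries, after filterByExpr (21492 genes) and TMM scaling. Each contrast had a quasi-likelihood F-test, Benjamini-Hochberg adjusted over these genes and called under 0.05, and this test was run on simulated counts with known changes. A standard error was derived as the size of the log2 change divided by the root of F. Replicate pairs, compared on counts divided by 4, had chi-square values per degree of freedom from 3.86 to 11.0, and none was treated as a repeat.

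Members and gene lists (151 genes, 137 in the table) were chosen with earlier results of these data known. Named list genes were up to 3 called genes with the largest change at a mean of 1 FPKM or more, and the 2 most abundant. SLC12A3, NR3C1, ZBTB16 and the marker genes were named after their values were seen. Alternatives were DESeq2 1.42.0, limma 3.58.1 on log2 FPKM, other scalings and filters, a block, and libraries left out. Figures were drawn with matplotlib 3.10.9.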

Additional observations from a re-analysis of the deposited data

How the results depend on the processing

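The lower values of MT2A, MT1E, MT1X and MT1F in shIDH1 cells kept their direction and their call under all 20 alternatives, with log2 changes between -3.27 and -2.73 for MT2A, -3.26 and -2.76 for MT1E, -2.39 and -1.11 for MT1X, and -2.82 and -0.46 for MT1F. The smallest sizes of the last 2 came from limma on log2(FPKM + 1). In shJOSD2 cells MT2A stayed between -2.22 and -1.68 and SLC30A1 between 0.38 and 0.63, both called under all 20. The number of measured genes called there was 4, but 2 when control replicate 1 stood alone as control, and ran from 3 to 4 when single libraries were left out. The small fall of MTF1 in shJOSD2 cells was also not called by limma on log2 FPKM (-0.15 with a pseudocount of 1 and -0.19 with 0.1). The change of MT1X in shJOSD2 cells was 0.03 against that lone control. The near-zero change of SLC30A1 in shIDH1 cells, never called, turned sign under RLE factors (0.02), DESeq2 (0.01), no filter (0.00), a minimum of 40 counts (0.02), counts divided by 4 (0.02), limma with either pseudocount (0.01), the replicate block (0.00) and the 2 groups alone (0.01). It ran from -0.09 to 0.08 with single libraries left out, and was between 0.01 and 0.08 where the sign turned. The cause was not tested. Same-numbered libraries did not deviate together (correlations of -0.018 to 0.038), with 2, 4 and 2 of 6 libraries closest to their own number in the 3 comparisons. The replicate block gave 10416 called genes against 10769 for shIDH1, 7823 against 8237 for shJOSD2 and 9296 against 9635 between the hairpins, and changed no call of a member. Depth limits MT1F, at 9 to 20 counts in shIDH1 libraries. Most alternatives also kept a filter that MT1F passed through the other groups, so its steady call is not separate support.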

Other observations

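Genes of glucocorticoid signalling, a known inducer of metallothionein genes, went in both directions. Of 10 tested genes 5 rose and 2 fell in shIDH1 cells and 2 rose and 4 fell in shJOSD2 cells, with median log2 changes of 0.46 and -0.24, but 4 rose and 2 fell in shJOSD2 cells without TMM scaling, and against control replicate 1 alone 6 rose and 2 fell in shIDH1 and 1 rose and 3 fell in shJOSD2 cells. NR3C1, the glucocorticoid receptor gene, had changes of -0.09 ± 0.08 in shIDH1 and -0.26 ± 0.08 in shJOSD2 cells (edgeR, Benjamini-Hochberg adjusted p = 0.392 and 0.0265), and the shJOSD2 call was lost with library sizes in place of TMM (-0.11) and with any 1 shJOSD2 library left out (adjusted p between 0.0619 and 0.103). DUSP1, a phosphatase gene, rose by 1.77 ± 0.09 and KLF9 by 1.71 ± 0.20 in shIDH1 cells (edgeR, Benjamini-Hochberg adjusted p = 1.27e-08 and 1.13e-05), and in shJOSD2 cells KLF9 rose by 1.31 ± 0.19 (edgeR, Benjamini-Hochberg adjusted p = 0.000191) and DUSP1 had a change of 0.23 ± 0.09 (edgeR, Benjamini-Hochberg adjusted p = 0.0652). FKBP5, a receptor co-chaperone gene, fell by 0.83 ± 0.10 in shIDH1 and by 0.66 ± 0.10 in shJOSD2 cells (edgeR, Benjamini-Hochberg adjusted p = 1.54e-05 and 0.000187). ZBTB16 is also among the 4 genes called lower in shJOSD2 cells. It had 11, 20 and 11 deposited counts in control, 10, 4 and 0 in shIDH1 and 0, 0 and 0 in shJOSD2 libraries. It passed the filter on low counts through the control libraries, which favours a lower value in shJOSD2 cells.

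Of 10 genes of glutathione and thioredoxin metabolism, thiol systems that work beside metallothioneins, 4 rose and 5 fell in shIDH1 cells and 7 fell in shJOSD2 cells, with median log2 changes of -0.21 and -0.39, but 2 rose and 4 fell in shJOSD2 cells without TMM scaling and 5 fell with control replicate 1 as the lone control. SLC7A11, the cystine importer gene, stood at 9.65 ± 1.65 FPKM in shIDH1, 1.46 ± 0.106 in shJOSD2 and 3.41 ± 1.10 in control libraries (SD, n = 3 each). It rose by 1.51 ± 0.19 in shIDH1 and fell by 1.37 ± 0.19 in shJOSD2 cells (edgeR, Benjamini-Hochberg adjusted p = 2.67e-05 and 0.000134), whereas MT2A fell in both. NQO1 fell by 0.83 ± 0.10 in shIDH1 and by 1.59 ± 0.10 in shJOSD2 cells (edgeR, Benjamini-Hochberg adjusted p = 2.02e-05 and 3.17e-07).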
